A study of Mus musculus with 9 samples.

Results

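The variable segments of the immunoglobulin kappa light chain, named Igkv in the mouse, were followed as 98 genes of the 22136 genes in the table. They were chosen by name alone, as every gene whose symbol begins with Igkv, with 2 further Igkv genes not reported here. The libraries were CD45+ cells, that is leukocytes, sorted from subcutaneous YUMM 2.1 tumours, a mouse melanoma cell line grown in immunocompetent C57BL/6J mice. The groups were 3 libraries from mice given anti-B7-H3, an antibody to the checkpoint protein B7-H3, 3 from mice given anti-PD1, an antibody to the checkpoint receptor PD-1, and 3 from mice given an isotype control IgG. All mice carried the same tumour line and were treated once tumours measured 20 to 50 mm3, with no other genotype or agent named in the labels. The study's stated aim was to describe the leukocytes that infiltrate such tumours. The cells are whole CD45+ sorts, so B cells and plasma cells were a part of each library and were not purified. The labels do not say that the libraries of a group came from separate animals, so p-values measure only the spread between these samples, which may be technical.

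A kappa light chain gene is assembled in a developing B cell, when the RAG recombinase joins 1 Igkv segment to a short joining segment, Igkj. The joined exon is spliced to the constant exon Igkc, and the chain pairs with a heavy chain to form the antibody. A B cell generally keeps a single light chain rearrangement, and its descendants inherit it, so the Igkv segments in a population of cells record which rearrangements are present. Plasma cells, the antibody-secreting descendants of B cells, hold far more immunoglobulin RNA per cell than resting B cells. In bulk samples fewer cells of a type and less RNA per cell cannot be told apart.

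The 98 segments lie on chromosome 6 of GRCm38 between 67555497 and 70704177, 37 on the plus strand and 61 on the minus strand, ahead of Igkj1 at 70722562 and Igkc at 70726435 to 70726966. The annotation places them in 20 families, and their coding sequences run from 338 to 371 bases. The germline ends of 10 segments are shown because the results turn on them. They were among the leading 3 of a library, differed between groups, or are hard to tell apart. Each line gives the last 75 coding bases in the 5′ to 3′ direction of the gene, from GENCODE M21 on GRCm38. Capitals mark the bases after the codon of the last in-frame cysteine, the part of the V segment that enters the third hypervariable loop, CDR3.
Igkv12-89: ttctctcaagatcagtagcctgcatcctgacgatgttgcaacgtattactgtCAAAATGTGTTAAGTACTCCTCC
Igkv12-46: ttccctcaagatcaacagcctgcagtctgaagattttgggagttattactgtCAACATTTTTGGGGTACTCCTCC
Igkv1-117: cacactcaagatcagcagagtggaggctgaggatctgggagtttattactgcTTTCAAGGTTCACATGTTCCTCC
Igkv1-110: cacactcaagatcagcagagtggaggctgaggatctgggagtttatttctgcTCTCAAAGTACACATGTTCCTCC
Igkv8-30: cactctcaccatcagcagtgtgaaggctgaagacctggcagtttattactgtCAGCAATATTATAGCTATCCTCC
Igkv7-33: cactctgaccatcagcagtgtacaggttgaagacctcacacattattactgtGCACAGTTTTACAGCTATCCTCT
Igkv15-103: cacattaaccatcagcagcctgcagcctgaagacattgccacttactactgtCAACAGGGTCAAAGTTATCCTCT
Igkv6-23: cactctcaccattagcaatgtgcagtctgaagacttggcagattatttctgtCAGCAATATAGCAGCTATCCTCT
Igkv4-68: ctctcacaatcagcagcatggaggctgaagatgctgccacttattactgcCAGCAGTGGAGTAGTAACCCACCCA
Igkv4-59: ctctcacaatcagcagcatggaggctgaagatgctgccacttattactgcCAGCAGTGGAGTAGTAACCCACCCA
Igkv12-89 lies at chr6:68834846-68835307 and Igkv12-46 at chr6:69764523-69765022, both on the minus strand. These family 12 segments, with coding sequences of 338 and 347 bases, are 54 edits apart over them and 17 apart over the 75 bases shown. These and the differences that follow are edit distances, which count substitutions and gaps. Igkv1-117 at chr6:68121046-68121827 and Igkv1-110 at chr6:68270485-68271267, both on the plus strand, differ at 10 coding positions, 4 of them among the 75 bases. Igkv4-68 and Igkv4-59 differ at 15 coding positions but at 0 of the last 75, so a read within that stretch cannot tell them apart. In all, 8 of the 98 segments share their last 75 bases with another member. The median identity of a segment to its nearest relative was 94.5%, and 47 segments had a relative at 95% identity or more. Of the members' counts, 98.6 to 99.96% stood in values that were not whole numbers, at a tolerance of 0.001. Over all genes it was 28.4 to 57.5%. A value with any fraction beyond the tolerance enters with its whole count, so these percentages do not measure how many reads were shared. Whether the fractions came from sharing among close relatives was not tested. Because many segments have close relatives, values of single segments are estimates whose split among them is uncertain.

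The summed Igkv level was highest with anti-PD1. It was 1831, 2240 and 2791 CPM, that is counts scaled to a common library total, in anti-B7-H3 libraries, 5167, 5040 and 3374 CPM in anti-PD1 libraries, and 1473, 2527 and 360.9 CPM in IgG libraries. These values rest on 27489 to 87773 Igkv counts per anti-B7-H3 library, 81622 to 155219 per anti-PD1 library and 7372 to 36489 per IgG library. The anti-PD1 values all lay above both other groups, whereas the anti-B7-H3 values overlapped those of IgG. The means were 2287 ± 482 CPM in the anti-B7-H3 group, 4527 ± 1001 CPM with anti-PD1, and 1454 ± 1083 CPM with IgG (SD, n = 3 each). On the log2 scale, anti-PD1 exceeded IgG by 2.01, a ratio of 4.03 between geometric means, with p = 0.1 in a two-sided exact permutation test. That is the smallest p that 3 against 3 allows, and it became 0.24 after Benjamini-Hochberg adjustment over the 12 exact tests made on summed values. Anti-B7-H3 against IgG gave 1.03, with an exact permutation p of 0.3 and an adjusted value of 0.36. Anti-B7-H3 against anti-PD1 gave -0.98, with an exact permutation p of 0.1 and an adjusted value of 0.24. The library IgG 3 set much of both differences from IgG: without it they were 0.22 for anti-B7-H3 and 1.20 for anti-PD1. Entered as a single row among all genes, the Igkv sum gave a log2 fold change of 1.80 ± 0.50 (SE) for anti-PD1 against IgG, with an adjusted p of 0.133 in edgeR's quasi-likelihood test.

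Igkc, the constant exon to which every kappa V segment is spliced, was measured apart from the members. It had 3482, 4362 and 6172 CPM in anti-B7-H3 libraries, 11660, 8797 and 7215 CPM in anti-PD1 libraries, and 2431, 3677 and 703.2 CPM in IgG libraries. It passed the edgeR test for anti-PD1 against IgG, with a log2 fold change of 2.18 and an adjusted p of 0.0401. The members had 0.526, 0.514 and 0.452 counts per Igkc count in anti-B7-H3 libraries, 0.443, 0.573 and 0.468 in anti-PD1 libraries, and 0.606, 0.687 and 0.513 in IgG libraries. The groups overlapped in all 3 comparisons, with exact permutation p of 0.3 for anti-B7-H3 against IgG, 0.2 for anti-PD1 against IgG and 0.9 for anti-B7-H3 against anti-PD1. The Igkj joining segments had 0 counts in every library. Their annotated stretches are short, Igkj1 running only from 70722562 to 70722599, and whether reads could be assigned to them was not tested. The 0 therefore does not show that no joining segment was used.

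**Figure D1:**
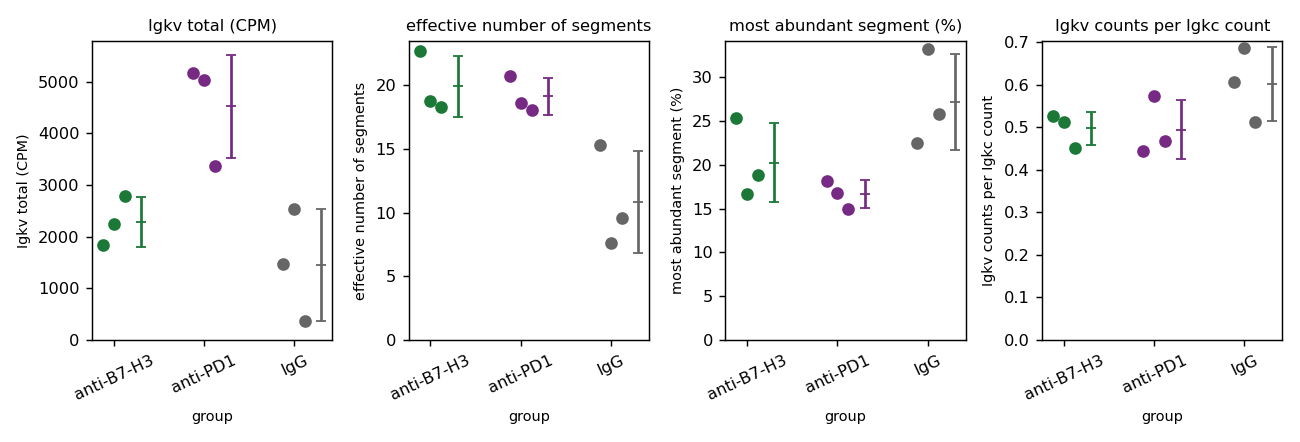
Summed Igkv level in CPM, effective number of segments, share of the most abundant segment in percent and Igkv counts per Igkc count, each against group. Points are libraries and bars are mean ± SD (n = 3). All anti-PD1 libraries lie above the others in summed level, and all IgG libraries lie below the others in effective number, at 15.3 or less.

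The kappa counts of every treated library were spread more evenly over segments than those of any IgG library, though 3 against 3 libraries cannot pass a threshold of 0.05. The effective number of segments, the exponential of the Shannon entropy of the shares, is the number of equally used segments that would give the same evenness. It was 22.7, 18.8 and 18.3 in anti-B7-H3 libraries, 20.8, 18.6 and 18.0 in anti-PD1 libraries, and 15.3, 7.63 and 9.58 in IgG libraries. No treated library overlapped an IgG library. The lowest, IgG 2, had 1895 tested genes at 0 counts, the most of any library. IgG 3 had 821 and the fewest Igkv counts, 7372, while anti-PD1 3 had 1248 at an effective number of 18.0. The part of such missing genes and of Igkv depth in the evenness was not tested. The differences from IgG were 9.07 segments for anti-B7-H3 and 8.29 for anti-PD1, each with an exact permutation p of 0.1, the smallest possible, and 0.24 after adjustment. The 2 antibodies differed by 0.78 segments, with an exact permutation p of 0.6. With the 2 further Igkv genes counted in, which took 12.9 to 40.2% of the Igkv counts of a library, these differences from IgG were 5.92 for anti-B7-H3 and 6.02 for anti-PD1. The anti-PD1 and IgG libraries then overlapped, with an exact permutation p of 0.2.

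The same pattern was seen in simple counts of segments. The leading segments that together made up 50% of the Igkv counts numbered 5, 5 and 6 in anti-B7-H3 libraries, 5, 6 and 6 in anti-PD1 libraries, and 4, 2 and 3 in IgG libraries. Segments with at least 1% of the Igkv total numbered 19, 24 and 22 in anti-B7-H3 libraries, 25, 21 and 21 in anti-PD1 libraries, and 16, 11 and 8 in IgG libraries. Rare segments behaved differently. Segments above 3 counts numbered 84, 62 and 41 in anti-B7-H3 libraries, 57, 57 and 39 in anti-PD1 libraries, and 40, 23 and 37 in IgG libraries, so these counts overlapped. Brought to the 7372 Igkv counts of the shallowest library, the expected numbers of segments were 84.1, 57.2 and 38.5 in anti-B7-H3 libraries, 47.5, 47.2 and 35.9 in anti-PD1 libraries, and 43.3, 22.8 and 42.0 in IgG libraries. The groups still overlapped, and anti-B7-H3 1 stood far above the rest.

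**Figure D2:**
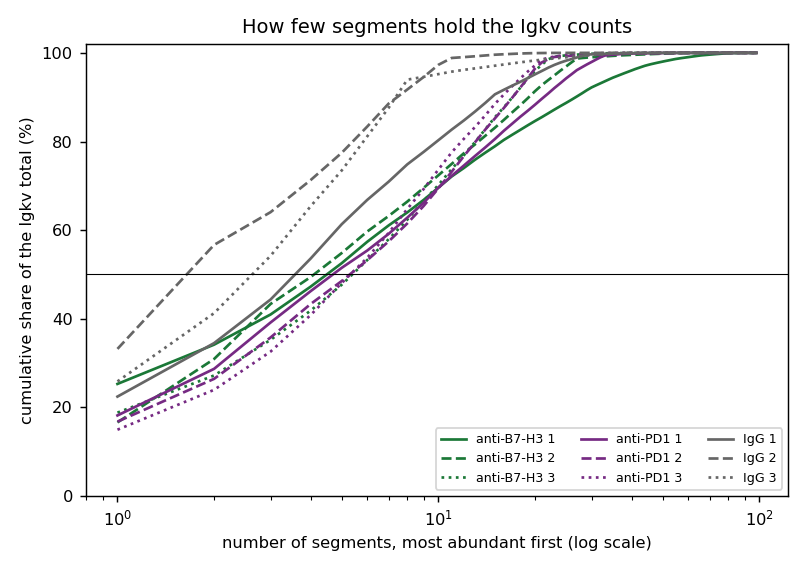
Cumulative share of the Igkv total in percent against the number of segments, most abundant first, on a log axis, with 1 line per library and a horizontal line at 50%. The IgG libraries reach 50% at 2 to 4 segments and the treated libraries at 5 or 6.

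Among the members, which segments led differed from library to library in the anti-B7-H3 and IgG groups but not in the anti-PD1 group. The most abundant segment was Igkv7-33 in anti-B7-H3 1 with 25.3% of the Igkv total, Igkv1-110 in anti-B7-H3 2 with 16.6% and Igkv8-30 in anti-B7-H3 3 with 18.8%. It was Igkv1-117 in all 3 anti-PD1 libraries, with 18.2, 16.8 and 15.0%. It was Igkv4-59 in IgG 1 with 22.5%, Igkv12-46 in IgG 2 with 33.2% and Igkv8-30 in IgG 3 with 25.9%. The next 2 segments were Igkv17-121 and Igkv5-48 in anti-B7-H3 1, Igkv19-93 and Igkv1-117 in anti-B7-H3 2, and Igkv6-15 and Igkv8-19 in anti-B7-H3 3. They were Igkv4-86 and Igkv1-110 in anti-PD1 1, Igkv1-110 and Igkv8-30 in anti-PD1 2, and Igkv7-33 and Igkv8-34 in anti-PD1 3. In the IgG libraries they were Igkv4-68 and Igkv15-103 in IgG 1, Igkv4-68 and Igkv4-61 in IgG 2, and Igkv15-103 and Igkv10-96 in IgG 3. The leading segment of each library was the same by the deposited TPM values, which are scaled by length. The 2 further Igkv genes, left out of this ranking, held 40.2% of all Igkv counts in anti-PD1 3 and 34.7% in anti-B7-H3 1. In each of these libraries at least 1 of them was more abundant than the leading member. There Igkv1-117 and Igkv7-33 thus led the members only, not all Igkv genes. Among the members, the leading share was lower in every anti-PD1 library than in any IgG library. The difference was -10.5 percentage points, with an exact permutation p of 0.1 and 0.24 after adjustment. For anti-B7-H3 against IgG the difference was -6.92 points, with overlap and an exact permutation p of 0.2. With the 2 further Igkv genes counted in, these differences were -0.63 points for anti-PD1 and -1.30 points for anti-B7-H3, with exact permutation p of 1.0 and 0.8.

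Igkv1-117, which had the highest mean share of any member over the 9 libraries at 9.96%, was found everywhere but was highest with anti-PD1. It had 17.5, 278.1 and 131.3 CPM in anti-B7-H3 libraries, 940.4, 846.7 and 505.3 CPM in anti-PD1 libraries, and 136.2, 148.9 and 23.4 CPM in IgG libraries. The anti-PD1 values exceeded all others, yet the log2 fold change of 3.06 ± 0.98 (SE) against IgG did not pass the edgeR test (adjusted p = 0.284). Its close relative Igkv1-110 had 53.7, 372.6 and 83.7 CPM with anti-B7-H3, 540.6, 486.6 and 147.5 CPM with anti-PD1, and 57.5, 4.71 and 40.4 CPM with IgG. The anti-PD1 values again lay above those of IgG, with a log2 fold change of 3.60 ± 1.15 (SE) and an adjusted p of 0.289 in edgeR. Only these segments and Igkv1-135, also of family 1, reached 1 CPM in all 9 libraries.

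The other segments among the 10 with the highest mean shares were high in some libraries of a group and nearly missing from others. Igkv8-30 had 67.8, 136.1 and 525.6 CPM in anti-B7-H3 libraries, 136.6, 470.6 and 0 CPM in anti-PD1 libraries, and 9.34, 0 and 93.4 CPM in IgG libraries. Igkv7-33 had 463.5, 78.8 and 0 CPM in anti-B7-H3 libraries, 195.1, 156.7 and 303.4 CPM in anti-PD1 libraries, and 114.2, 0 and 0 CPM in IgG libraries. Every anti-PD1 value of Igkv7-33 lay above every IgG value, with a log2 fold change of 2.67 ± 2.80 (SE) and an adjusted p of 0.802 in edgeR. Its other comparisons, and all those of Igkv8-30, overlapped between the groups, and neither segment passed a test. Igkv15-103 had 15.99, 121.5 and 75.6 CPM with anti-B7-H3, 119.6, 203.9 and 182.3 CPM with anti-PD1, and 145.0, 0 and 55.6 CPM with IgG. It was detected in every library but IgG 2. Igkv10-96, Igkv19-93 and Igkv17-121 also belonged to the 10 segments with the highest mean shares, with highest values of 176.7 CPM in anti-PD1 2, 320.3 CPM in anti-B7-H3 2 and 365.5 CPM in anti-PD1 1.

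The leaders of IgG 1 and IgG 2, Igkv4-59 and Igkv12-46, and Igkv4-68, which came next in both, were lower in every treated library than there. Igkv8-30, the leader of IgG 3, was higher in 4 of the treated libraries than in IgG 3. Igkv12-46 had 15.9, 1.16 and 2.19 CPM in anti-B7-H3 libraries, 0.0333, 0.820 and 0 CPM in anti-PD1 libraries, and 0, 839.1 and 1.47 CPM in IgG libraries. Igkv4-68 had 26.3, 0.649 and 16.7 CPM with anti-B7-H3, 97.4, 1.39 and 0.207 CPM with anti-PD1, and 177.6, 592.9 and 0.0490 CPM with IgG. Igkv4-59, whose end is identical to that of Igkv4-68, had 2.47, 35.8 and 62.9 CPM with anti-B7-H3, 0.366, 0.856 and 0 CPM with anti-PD1, and 330.7, 0 and 0.294 CPM with IgG. Each was high in 1 or 2 of 3 IgG libraries, so the groups overlapped. Family 4 as a whole took 42.8% of the Igkv total in IgG 1 and 33.9% in IgG 2, and at most 15.0% in every other library. In the treated groups as well, some segments were nearly confined to a single library. Igkv4-86 had 543.0 CPM in anti-PD1 1 and at most 0.512 CPM in the other 8 libraries, and Igkv8-34 had 291.2 CPM in anti-PD1 3 and at most 0.267 CPM elsewhere.

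**Figure D3:**
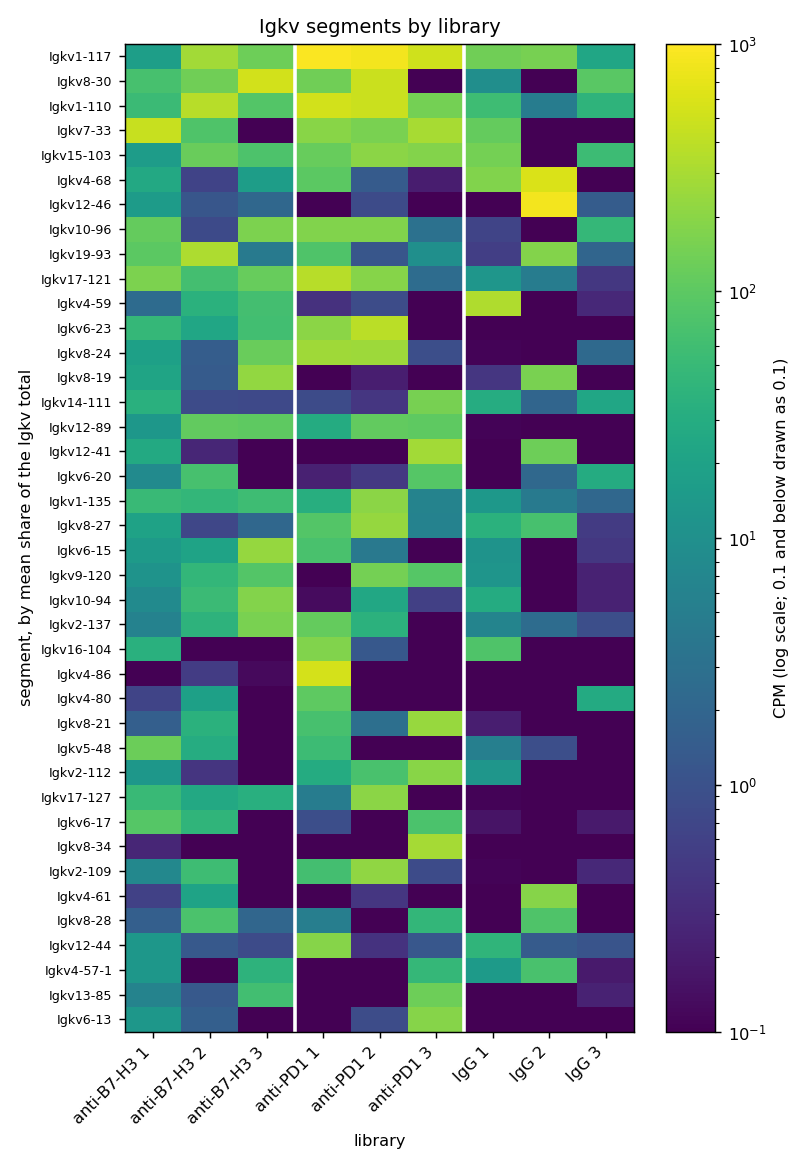
CPM, on a log colour scale, of the 40 segments with the highest mean share of the Igkv total (rows) in the 9 libraries (columns), with white lines between groups. Igkv1-117 in the top row is bright across all anti-PD1 libraries, while Igkv4-86, Igkv8-34 and Igkv12-46 are bright in 1 library each.

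Over all 98 segments and 9 libraries, 575 of 882 values (65.2%) were under 1 CPM, 108 lay between 1 and 10 CPM, and 199 (22.6%) were at 10 CPM or more. For 62 segments, 1 library had at least 10 CPM while another had less than 1. Of the 98, 39 never reached 1% of a library's Igkv total, 19 did so in 1 library, 2 in 8 libraries and 0 in all 9. The segments at 0 in every library numbered 3. The overlap of 2 libraries, the sum over segments of the smaller of the 2 shares, was 31.9 to 36.6% within anti-B7-H3, 29.2 to 59.6% within anti-PD1 and 7.87 to 25.3% within IgG. Between libraries of different groups it ranged from 9.43 to 52.0% with a median of 31.1%. The highest of all pairs was anti-PD1 1 with anti-PD1 2, and the IgG libraries shared less with one another than the median pair of different groups.

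Igkv12-89 was the 1 segment that passed the test against IgG for each antibody. It had 13.3, 108.2 and 101.0 CPM in anti-B7-H3 libraries, 28.8, 109.3 and 102.4 CPM in anti-PD1 libraries, and 0.109, 0 and 0 CPM in IgG libraries. Every treated library lay above every IgG library, where the segment had 2 counts in all. The log2 fold change was 10.79 ± 1.29 (SE) for anti-B7-H3 against IgG, with an adjusted p of 0.00649 in edgeR's quasi-likelihood test. It was 10.96 ± 1.30 (SE) for anti-PD1 against IgG, with an adjusted p of 0.00418. Because the IgG counts were so few, the size of the change is poorly fixed. The ratio of pooled CPM, with its 95% counting interval, was 2302 (637 to 19010) for anti-B7-H3 and 2075 (574 to 17140) for anti-PD1. These intervals treat estimated counts as separate reads and leave out the spread between libraries. Both comparisons use the same IgG libraries. The call for anti-B7-H3 was lost without IgG 1, IgG 2 or IgG 3, with adjusted p of 0.0621, 0.0538 and 0.0557 in edgeR. Without IgG 2 and anti-PD1 3 together, the call was lost in both comparisons, with adjusted p of 0.105 for anti-B7-H3 and 0.0769 for anti-PD1. These 2 libraries stood apart, with 1895 tested genes at 0 counts in IgG 2 and 1248 in anti-PD1 3, against 224 to 821 in the others. Its nearest relative by coding sequence, Igkv12-46, is 84.4% identical and was itself high only in IgG 2.

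For anti-B7-H3 against IgG, 60 members had enough counts to be tested and 38 did not. Igkv12-89 rose and 0 fell at an adjusted p under 0.05, while 0.827% of all 13178 tested genes rose and 0.850% were called in either direction. At an unadjusted p under 0.05, 8 members were higher and 0 lower, where 8.81% of all genes passed, and 5.63% of all genes passed and were higher with anti-B7-H3. The median log2 fold change of the 60 was 2.50, or 2.34 with the 4 segments that were at 0 in a whole group set to their bound, against 0.02 over all genes. The count filter lets a member in through the treated libraries alone, as with Igkv6-23, at 0 in all IgG libraries. The median and the counts of members higher or lower therefore describe the tested members only and cannot show a general rise. The median standard error, computed back from the test's F statistic, was 2.64 for members and 0.40 for all genes. Counts at or near 0 in a group can also raise it, so it does not measure spread between replicates alone. Members higher in all anti-B7-H3 libraries than in all IgG libraries numbered 9 before TMM scaling, where 8.12% of all genes did so, and 12 after it, where 9.96% did so. Members lower in all numbered 0 either way, where 7.38% of all genes were lower before scaling and 5.50% after it.

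Among the members next in order of p, Igkv6-23 had 46.2, 23.5 and 61.2 CPM in anti-B7-H3 libraries and 0 CPM in all IgG libraries. It was thus at least 776-fold higher with anti-B7-H3, against a floor of 3 counts over the IgG group, but its adjusted p was 0.533. Igkv17-127 had 50.6, 25.9 and 33.8 CPM with anti-B7-H3 and 0.109, 0 and 0 CPM with IgG, with an adjusted p of 0.440. Igkv17-121, a 97.5% identical relative of Igkv17-127, had 162.2, 63.5 and 117.6 CPM with anti-B7-H3 and 12.7, 4.85 and 0.441 CPM with IgG (adjusted p = 0.539). Igkv1-135 had 51.8, 44.9 and 58.2 CPM with anti-B7-H3 and 13.8, 4.29 and 2.20 CPM with IgG (adjusted p = 0.529). In these 4 segments the groups did not overlap, and the anti-B7-H3 libraries were close to one another. Igkv5-45 did not overlap either, but rested on 47.8 CPM in anti-B7-H3 3 with 0.600 and 0.239 CPM in the others, against at most 0.0490 CPM with IgG. Igkv8-21, Igkv2-109, Igkv6-17 and Igkv4-50 overlapped between the groups, with adjusted p of 0.557 to 0.584 in edgeR. DESeq2 on the same counts called 5 members, all higher, where 3.01% of all genes were called: Igkv12-89, Igkv6-23, Igkv5-45, Igkv8-21 and Igkv2-109. With only the 6 libraries compared, edgeR called Igkv12-89, Igkv6-23 and Igkv17-127, where 0.355% of all genes were called.

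For anti-PD1 against IgG, Igkv12-89 rose and 0 members fell at an adjusted p under 0.05, against 1.72% of all genes that rose and 1.74% called in either direction. At an unadjusted p under 0.05, 18 members were higher and 3 lower, where 10.9% of all genes passed, and 7.17% of all genes passed and were higher. The median log2 fold change of the 60 tested members was 2.96, also with the 4 segments at 0 in a whole group set to their bound, against -0.04 over all genes. The limit set by the count filter, given above for anti-B7-H3, holds here too. Members higher in all anti-PD1 libraries than in all IgG libraries numbered 10 before and after TMM scaling, where 8.38 and 9.99% of all genes did so. Members lower in all numbered 0, where 10.1% of all genes were lower before scaling and 6.52% after it. DESeq2 called 14 members, 12 higher and 2 lower, where 4.95% of all genes were called, and among the 12 were Igkv1-117 (adjusted p = 0.0254) and Igkv1-110 (adjusted p = 0.0122). Counted relative to the Igkv total in place of the whole library, edgeR called 15 members, 11 higher and 4 lower, but with that scaling it also called 69.1% of all genes, 77 higher and 9030 lower. The same scaling called 3 members for anti-B7-H3 against IgG, where 0.0607% of all genes were called, and 2 between the antibodies, where 0.167% were called.

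Among the other members with the smallest p in this comparison, Igkv3-12, Igkv8-21, Igkv17-127, Igkv1-135, Igkv4-58 and Igkv1-99 were uneven within the anti-PD1 group. Igkv3-12 had 96.5, 118.2 and 0.331 CPM with anti-PD1 and 0, 0.277 and 0 CPM with IgG (adjusted p = 0.208). Igkv8-21 had 69.5, 2.89 and 244.2 CPM with anti-PD1 and 0.217, 0.0693 and 0 CPM with IgG (adjusted p = 0.273). Both did not overlap with IgG, yet their anti-PD1 values spanned a wide range. Igkv17-127 had 4.83, 198.9 and 0 CPM with anti-PD1, and Igkv1-135 had 32.1, 199.5 and 6.12 CPM, both overlapping the IgG values given above. Igkv4-58 had 26.4, 0 and 2.98 CPM and Igkv1-99 had 20.5, 0.749 and 0 CPM with anti-PD1, and both were at 0 in all IgG libraries. Igkv4-71 was the only 1 of these 10 with a negative fold change, with 0.0666, 0.0357 and 0 CPM with anti-PD1 and 4.45, 4.71 and 0 CPM with IgG (adjusted p = 0.293). Igkv6-23, not among these 10, had 200.6, 380.7 and 0 CPM with anti-PD1.

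Between the antibodies, 0 members were called by edgeR, as were 0 of all genes, and 0 members by DESeq2, where 0.114% of genes were called. At an unadjusted p under 0.05 in edgeR, 1 member was higher with anti-B7-H3 and 2 were lower, where 3.23% of all genes passed, and 1.26% of all genes passed and were higher. The median log2 fold change of the 60 tested members was -0.84, against 0.04 over all genes. The 2 lower were Igkv1-117, with a log2 fold change of -2.49 ± 0.96 (SE), and Igkv3-12, with -5.98 ± 2.17 (SE), and both had an adjusted p of 1.0. Igkv3-12 had 2.20, 0 and 1.27 CPM with anti-B7-H3, against the anti-PD1 values given above, with which it overlapped. The higher one was Igkv8-19, which had 21.5, 1.40 and 224.5 CPM in anti-B7-H3 libraries and 0.0666, 0.214 and 0 CPM in anti-PD1 libraries. Its groups did not overlap, but IgG 2 had 155.6 CPM of it. Members higher in all anti-B7-H3 than in all anti-PD1 libraries numbered 5 before and after TMM scaling, where 7.59 and 7.14% of all genes did so. Members lower in all numbered 2 before scaling, where 5.15% of all genes did so, and 3 after it, where 6.40% did so. Of the other 7 with the smallest p, Igkv4-58, Igkv13-84, Igkv1-99, Igkv4-79 and Igkv3-2 had negative fold changes and Igkv4-72 and Igkv4-59 positive ones, all with an adjusted p of 1.0.

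Because reads may be split among close relatives, the members were also summed to their 20 families, a step added after the data were seen. The sums were tested in a separate edgeR fit of the same kind, with 13135 features. Families 11, 18 and 20 were not among those tested. For anti-PD1 against IgG, families 1 and 6 rose, where 1.81% of all features were called. Family 1 had 1535, 1534 and 659.0 CPM with anti-PD1 and 218.9, 158.0 and 66.1 CPM with IgG, with a log2 fold change of 3.22 ± 0.65 (SE) and an adjusted p of 0.0434 in edgeR. With anti-B7-H3 it had 127.6, 695.9 and 273.4 CPM, which overlapped the IgG values. Family 6 had 343.8, 392.6 and 349.0 CPM with anti-PD1 and 11.45, 2.22 and 31.7 CPM with IgG. Its log2 fold change was 4.59 ± 0.86 (SE), with an adjusted p of 0.0391. With anti-B7-H3 family 6 had 187.1, 157.0 and 296.6 CPM, also above every IgG value. There the log2 fold change was 3.82 ± 0.83 (SE), with an adjusted p of 0.121 in edgeR. Neither call held with libraries sized by the Igkv total, with adjusted p of 0.245 for family 1 and 0.1 for family 6, nor without a filter on low counts (0.201 and 0.145). Without IgG 2 the adjusted p of family 1 was 0.188, and without anti-PD1 1 that of family 6 was 0.118. For anti-B7-H3 against IgG 0 families were called, where 0.868% of all features were, and between the antibodies 0 families and 0 features were called.

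Shares by position along the locus are given as descriptions, with no test. The 58 segments on the Igkj side of the midpoint of the locus held 60.6, 30.5 and 48.5% of the Igkv total in anti-B7-H3 libraries, 33.6, 42.1 and 47.0% in anti-PD1 libraries, and 60.02, 86.1 and 37.7% in IgG libraries. The groups overlapped in this share, and IgG 2 was highest, with its leading segments Igkv12-46 and Igkv4-68 on that side. Plus-strand segments, which share the orientation of Igkj and so join to it by deletion, held 33.5, 48.8 and 29.6% in anti-B7-H3 libraries, 51.8, 58.5 and 43.5% in anti-PD1 libraries, and 37.3, 6.64 and 41.8% in IgG libraries. Every anti-PD1 library lay above every IgG library in this share, while the anti-B7-H3 libraries overlapped those of IgG. The plus strand holds Igkv1-117 and Igkv1-110, which were high with anti-PD1.

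**Figure D4:**
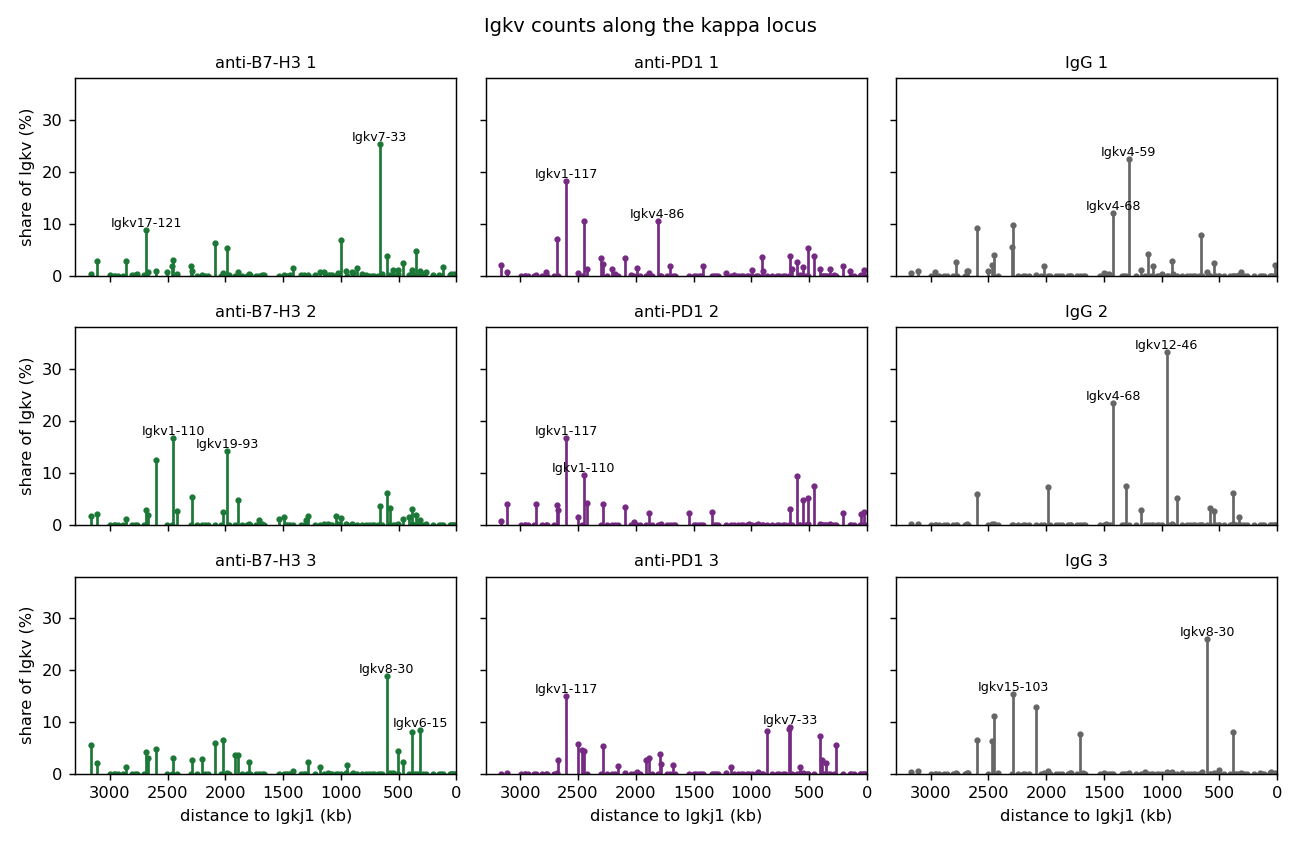
Share of the Igkv total in percent for each segment against its distance to Igkj1 in kb, with Igkj1 at the right, in 9 panels, 1 per library, and columns for anti-B7-H3, anti-PD1 and IgG. The leading 2 segments of each library are named, and the 2 tall lines in IgG 2 are Igkv4-68 and Igkv12-46.

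Markers of the cells that carry kappa chains moved differently from one another. The summed level of 14 plasma cell markers was 727.9, 925.3 and 1129 CPM in anti-B7-H3 libraries, 2006, 1552 and 1582 CPM in anti-PD1 libraries, and 758.6, 803.4 and 362.6 CPM in IgG libraries. The anti-PD1 values lay above both other groups, as those of the Igkv sum did. Of the 14, 5 rose for anti-PD1 against IgG, where 1.72% of all genes did, 0 fell, and the median log2 fold change was 1.78. They were Creld2, a chaperone of the endoplasmic reticulum (adjusted p = 0.00992), Irf4, a transcription factor of plasma cell formation (0.0307), Jchain, which links antibody polymers (0.0453), Xbp1, the regulator of the secretory programme (0.0468), and Fkbp11 (0.0493), the last named after its value was seen, all by edgeR. For anti-B7-H3 against IgG 0 of 14 were called, where 0.850% of all genes were, and the median was 0.82.

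The summed level of 18 B cell markers was 794.3, 261.7 and 201.0 CPM with anti-B7-H3, 223.2, 299.8 and 174.0 CPM with anti-PD1, and 142.1, 289.2 and 197.2 CPM with IgG. The groups overlapped and 0 of 18 were called in any comparison. Of all genes, 0.850% were called for anti-B7-H3 against IgG, 1.74% for anti-PD1 against IgG and 0 between the antibodies. The library anti-B7-H3 1 was highest, and it also had the most segments above 3 counts, 84. In it the B cell receptor subunit Cd79a had 199.6 CPM, against at most 59.1 CPM in the other libraries, and the delta heavy chain Ighd had 134.9 CPM, against at most 21.2 CPM, both named after their values were seen. Its 6 pre-B cell markers summed to 11.7 CPM, against at most 2.69 CPM elsewhere. The part of these markers in the number of segments was not tested.

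**Figure D5:**
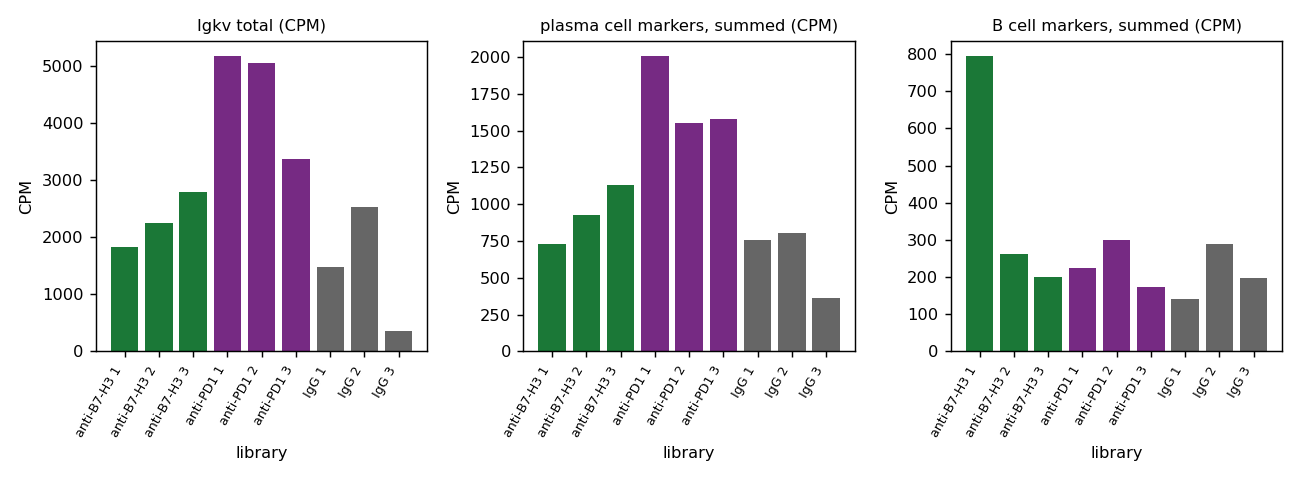
Summed CPM of the 98 Igkv segments, of 14 plasma cell markers and of 18 B cell markers, as bars by library, coloured by group. The Igkv sum and the plasma cell markers are highest in the 3 anti-PD1 libraries, while the B cell markers are highest in anti-B7-H3 1 at 794.3 CPM.

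Of 35 genes of the antibody receptor and kappa chain pathway, 22 were tested and 6 were at 0 in all libraries. For anti-PD1 against IgG 4 rose and 0 fell, where 1.72% of all genes rose. They were Igkc, described above, and the mu heavy chain Ighm, with a log2 fold change of 2.09 (adjusted p = 0.00813). The others were the lambda constant gene Iglc2, with 2.48 (adjusted p = 0.0301), and the kinase Lyn, with 1.06 (adjusted p = 0.0441), all by edgeR. For anti-B7-H3 against IgG 0 were called, where 0.850% of all genes were, and between the antibodies 0 were called, as were 0 of all genes. The medians of the tested members were 1.25 for anti-PD1 against IgG and 1.42 for anti-B7-H3 against IgG on the log2 scale, against -0.04 and 0.02 over all genes. The 5 genes outside the immunoglobulin loci whose log2 CPM most resembled that of the Igkv sum over the 9 libraries were Cd151 (r = 0.981), Mzb1 (r = 0.974), Retnlg (r = 0.964), Pdia4 (r = 0.953) and Flrt3 (r = 0.953), taken from 13178 genes. Mzb1 is a chaperone of antibody assembly in plasma cells, and had 38.4, 57.4 and 58.5 CPM with anti-B7-H3, 144.7, 114.6 and 74.0 CPM with anti-PD1, and 29.6, 34.7 and 5.04 CPM with IgG. Igkc itself had r = 0.974 and Cd79a had r = -0.04. These correlations are descriptions, and all points share the library's depth.

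Other cells in the sorts also differed between the groups. The sum of 8 macrophage markers was 1531 to 2049 CPM with anti-B7-H3, 1061 to 1529 CPM with anti-PD1 and 99.65 to 278.3 CPM with IgG. Of the 8, 6 rose in each treated group against IgG, where 0.827% of all genes rose for anti-B7-H3 and 1.72% for anti-PD1. The sum of 7 T cell markers was 4414 to 5411 CPM with anti-B7-H3, 4355 to 5887 CPM with anti-PD1 and 5858 to 8008 CPM with IgG. None of these markers was called in any comparison. Of all genes, 0.850% were called for anti-B7-H3 against IgG, 1.74% for anti-PD1 against IgG and 0 between the antibodies. Erythroid markers summed to 410.7 CPM in IgG 3 and to between 1.96 and 76.1 CPM in the other 8 libraries. Melanoma and melanocyte markers summed to 0.372 to 13.7 CPM, germinal centre markers to 14.9 to 53.8 CPM, and Ptprc, which encodes CD45 itself, had 1543 to 3154 CPM. The part of these cells in the Igkv values was not tested.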

How the data were processed

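Per the labels' protocols, RNA of CD45+ cells was amplified with SMART-Seq v4, depleted of ribosomal RNA and made into Nextera XT libraries. These kits do not mark strand and use no molecular identifiers, so counting intervals cover counting error only. The submitters' processing notes name GRCm38 and FastQC 0.11.8. The quantifier is not given in the sources used here. Per the file headers, the authors deposited an estimated count, a TPM value, a length and an effective length for each of 58083 transcripts, of which 57409 matched GENCODE M21 and 674 did not. The estimated counts are as the authors deposited them, without scaling, and the deposited TPM values are scaled for length and depth. Depth was 14487012 to 31533106 counts per library, so 3 counts lie between 0.0954 and 0.208 CPM.

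Estimated counts were summed per gene and rounded. CPM used library totals, and shares used the sum of the 98 members. All 9 libraries entered 1 fit in edgeR 4.0.16 (R 4.3.3) with TMM factors, filterByExpr, group means, robust quasi-likelihood tests and Benjamini-Hochberg adjustment over 13178 genes at 0.05. The script was first tested on simulated data. The SE of an edgeR log2 fold change was its absolute value divided by the square root of the test's F statistic. Summed values had two-sided exact permutation tests (scipy 1.17.1). Intervals of pooled ratios were exact at 95%, and coding sequences were compared with edlib 1.3.9.post1. Named segments were the 10 with the highest mean share, the leading 3 of each library, the members past the test, and the 10 with the smallest p in each comparison where fewer than 5 passed. The members, gene lists and tests were chosen with earlier results of these data known. Alternatives were DESeq2 1.42.0, its size factors, other filters, other scalings, only the 6 libraries compared, the replicate number as a block, each library left out, the TPM values, other measures of evenness and the 2 further Igkv genes counted in.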

Additional observations from a re-analysis of the deposited data

How the results depend on the processing

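Under the alternatives to the tests of summed values and segments, 165 results kept their direction and side of the threshold. The exact tests, at 3 libraries a group or fewer, cannot pass 0.05, so for them only the direction could change. Of the results that did change, 10 were differences between the antibodies that changed sign and 11 were counts of called segments. With the 2 further Igkv genes counted in, anti-B7-H3 against anti-PD1 changed sign in effective number (-0.101 against 0.78), in leading share (-0.669 against 3.60 points) and in log2 Igkv per Igkc (-0.004 against 0.01). The inverse Simpson index gave -1.77, with every anti-B7-H3 library (10.79, 12.3 and 13.45) below every anti-PD1 library (13.48, 14.0 and 14.4) and an exact permutation p of 0.1, the smallest possible. Without the most abundant segment Igkv per Igkc gave -0.052. Leaving out 1 library at a time, the effective number difference ranged from -0.593 to 1.60 and the Igkv per Igkc difference from -0.061 to 0.124. The cause was not tested.

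The count of segments called against IgG was 1 for each antibody. For anti-B7-H3 it was 5 with DESeq2, 3 with libraries sized by the Igkv total, 3 with only the 6 libraries compared (shares of all genes are given above), and 0 to 2 leaving out 1 library at a time: 0 without IgG 1, IgG 2 or IgG 3, and 2 without anti-PD1 3, where 0.680% of all genes were called. For anti-PD1 it was 14 with DESeq2, 15 with libraries sized by the Igkv total, and 1 to 3 leaving out 1 library at a time, with 3 without anti-PD1 3, where 1.11% of all genes were called. Between the antibodies it was 0, and 2 with libraries sized by the Igkv total. Without IgG 2 and anti-PD1 3, chosen after seeing the data, 1 segment was called for each antibody, Igkv6-23 in place of Igkv12-89. Same-numbered libraries of different groups had correlations of -0.12 to 0.156, and differently numbered ones -0.145 to 0.123. With 3 libraries a group these values show no pairing by replicate number but cannot exclude it. With the replicate number as a block, the counts were 1, 1 and 0, and no call changed. Depth limits rare segments most in IgG 3, with 7372 Igkv counts.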
